A study of Homo sapiens with 9 samples.

Results

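The genes described here are 10 regulators and markers of the epithelial to mesenchymal transition: ZEB1, ZEB2, SNAI1, SNAI2, TWIST1, ESRP1, ESRP2, OVOL1, VIM and EPCAM. They were taken by symbol from a table of 60715 genes and each symbol matched 1 row. All libraries came from MDA-MB-231, an established human triple-negative breast cancer line that expresses the mesenchymal filament vimentin strongly and E-cadherin hardly at all. Lentivirus delivered each construct, and positive cells were sorted by fluorescence. The 3 control libraries carried RFP, a red fluorescent protein. A second group of 3 libraries expressed KCNJ2(Kir2.1)-Y242F-EGFP, an inwardly rectifying potassium channel joined to green fluorescent protein. The last group was labelled Kv1.5-T2A-his-EGFP, a voltage-gated potassium channel encoded by KCNA5, and had 2 libraries with counts, replicates 2 and 3; replicate 1 was not analysed here. The comparisons ask how the RNA of these genes differs when the cells carry a potassium channel. Both channel constructs also carried EGFP and the control did not, so channel and fluorescent protein cannot be told apart. The labels state separate biological replicates, but not whether each came from its own transduction, so p-values measure the spread between these libraries.

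Total counts ran from 30970235 to 42753422 per library. KCNJ2 stood at 843 to 1384 CPM (a gene's counts per 1000000 counts of its library, scaled by the trimmed mean of M values) in the 3 Kir2.1 libraries and at 0.105 CPM or less elsewhere. KCNA5 had 0 counts in replicates 2 and 3 of the Kv1.5 group, so the name stands below for the label and not for a measured channel transcript. E-cadherin (CDH1) was at most 0.184 CPM in every library, against 1748 to 4005 CPM for VIM.

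Epithelial cells hold together through E-cadherin junctions and keratin filaments. In the transition they lose these and take up vimentin and a migratory shape. ZEB1, ZEB2, SNAI1, SNAI2 and TWIST1 are the classical drivers, transcription factors that bind E-box sequences, the ZEB and SNAIL proteins as repressors of CDH1 and other epithelial genes. ESRP1 and ESRP2 are splicing factors of epithelial cells, and OVOL1 is an epithelial zinc-finger repressor that counters ZEB1. EPCAM is an epithelial surface glycoprotein. MicroRNAs of the miR-200 family and miR-205 silence ZEB1 and ZEB2, and the ZEB proteins in turn repress the miR-200 genes.

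The seeds of these microRNAs show which of them recognise the same ZEB sites, so the mature sequences are given from RefSeq (GRCh38.p14), 5′ to 3′, with the seed, bases 2 to 8, in capitals.
hsa-miR-200b-3p: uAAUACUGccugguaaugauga
hsa-miR-200c-3p: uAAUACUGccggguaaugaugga
hsa-miR-429: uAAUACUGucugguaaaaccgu
hsa-miR-200a-3p: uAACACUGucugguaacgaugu
hsa-miR-141-3p: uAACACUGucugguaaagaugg
hsa-miR-205-5p: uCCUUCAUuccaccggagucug
The first 3 share the seed AAUACUG, miR-200a-3p and miR-141-3p share AACACUG, and miR-205-5p has CCUUCAU. MicroRNAs were not measured, since the libraries held polyadenylated RNA. Host transcripts of 3 of them were at the floor: MIR200CHG, which contains miR-200c and miR-141, had 1 count over all 8 libraries, and MIR205HG, which contains miR-205, had 0. A count of 0 over all libraries allows up to 3 counts, or 0.0102 CPM, for counting error alone.

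RefSeq promoter windows matched 3 of the 10 genes: VIM, ZEB2 and 7 alternative starts of ZEB1. The 250 bases upstream of a start are printed for VIM and ZEB2, whose RNA differed between groups, and for the ZEB1 start with the most E-boxes of the ZEB and SNAIL type. Capitals mark matches on either strand to CACCTG (the ZEB and SNAIL E-box, CAGGTG on the other strand), CCGTTA (bound by OVOL proteins) and GGGCGG (a GC box, CCGCCC on the other strand). The GC box was added after the sequences were seen.
VIM, chr10:17227991-17228240, plus strand: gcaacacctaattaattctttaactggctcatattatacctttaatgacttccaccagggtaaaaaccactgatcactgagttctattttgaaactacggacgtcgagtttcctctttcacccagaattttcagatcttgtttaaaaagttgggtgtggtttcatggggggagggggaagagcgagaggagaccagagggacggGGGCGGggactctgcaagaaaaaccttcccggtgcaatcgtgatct
ZEB2, chr2:144520120-144520369, minus strand: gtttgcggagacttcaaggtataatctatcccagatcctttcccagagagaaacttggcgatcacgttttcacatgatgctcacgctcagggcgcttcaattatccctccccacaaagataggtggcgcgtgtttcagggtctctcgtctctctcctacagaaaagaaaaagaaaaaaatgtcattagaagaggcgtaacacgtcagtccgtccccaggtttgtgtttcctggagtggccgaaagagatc
ZEB1 start 3, chr10:31318966-31319215, plus strand: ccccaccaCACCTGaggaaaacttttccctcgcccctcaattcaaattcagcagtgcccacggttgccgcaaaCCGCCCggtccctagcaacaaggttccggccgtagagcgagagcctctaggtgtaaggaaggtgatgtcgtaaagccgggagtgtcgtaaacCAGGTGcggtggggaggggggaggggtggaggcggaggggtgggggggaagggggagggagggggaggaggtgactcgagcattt
The VIM window held 1 GC box, beginning 46 bases before the start, and neither of the other motifs. The ZEB2 window held none of the 3. The ZEB1 window held CACCTG sites beginning 242 and 85 bases before the start, and a GC box. Of 35116 promoter windows of this length, 17.5% held CACCTG, 2.45% CCGTTA and 42.6% GGGCGG. These matches describe the letters of the windows and no binding was measured.

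In cells with Kir2.1, ESRP2 rose from a mean of 0.443 CPM to 4.23 CPM, while its paralog ESRP1, SNAI1 and ZEB2 fell relative to RFP cells. In the Kv1.5-labelled libraries, ESRP2 was higher still and VIM stood 1.86-fold below RFP. Of the 10 genes, 8 had enough counts to be tested. Between Kir2.1 and RFP, 1 of the 8 rose and 3 fell, against 20.5% of all tested genes called in either direction (12.2% higher, 8.26% lower). Between the Kv1.5-labelled libraries and RFP, 1 rose and 1 fell, against 33.7% of all genes (18.1% higher, 15.6% lower). Between the Kv1.5-labelled libraries and Kir2.1, 3 were higher and 1 lower in the former, against 16.8% of all genes (8.79% higher, 7.99% lower). Calls are edgeR quasi-likelihood tests with Benjamini-Hochberg adjusted p under 0.05 over 16687 genes. The median log2 fold change of the 8 was -0.50, 0.15 and 0.89 in the 3 comparisons, where the medians over all tested genes were -0.007, 0.019 and 0.005. With single libraries left out, 2 genes were called for Kir2.1 against RFP without RFP replicate 1 or Kir2.1 replicate 1 or 2. In the second comparison 1 was called without Kv1.5 replicate 3 and 3 without Kv1.5 replicate 2, and in the last 2 without Kir2.1 replicate 1 and 1 without Kv1.5 replicate 3. The 3 comparisons share libraries and are not independent of one another.

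**Figure D1:**
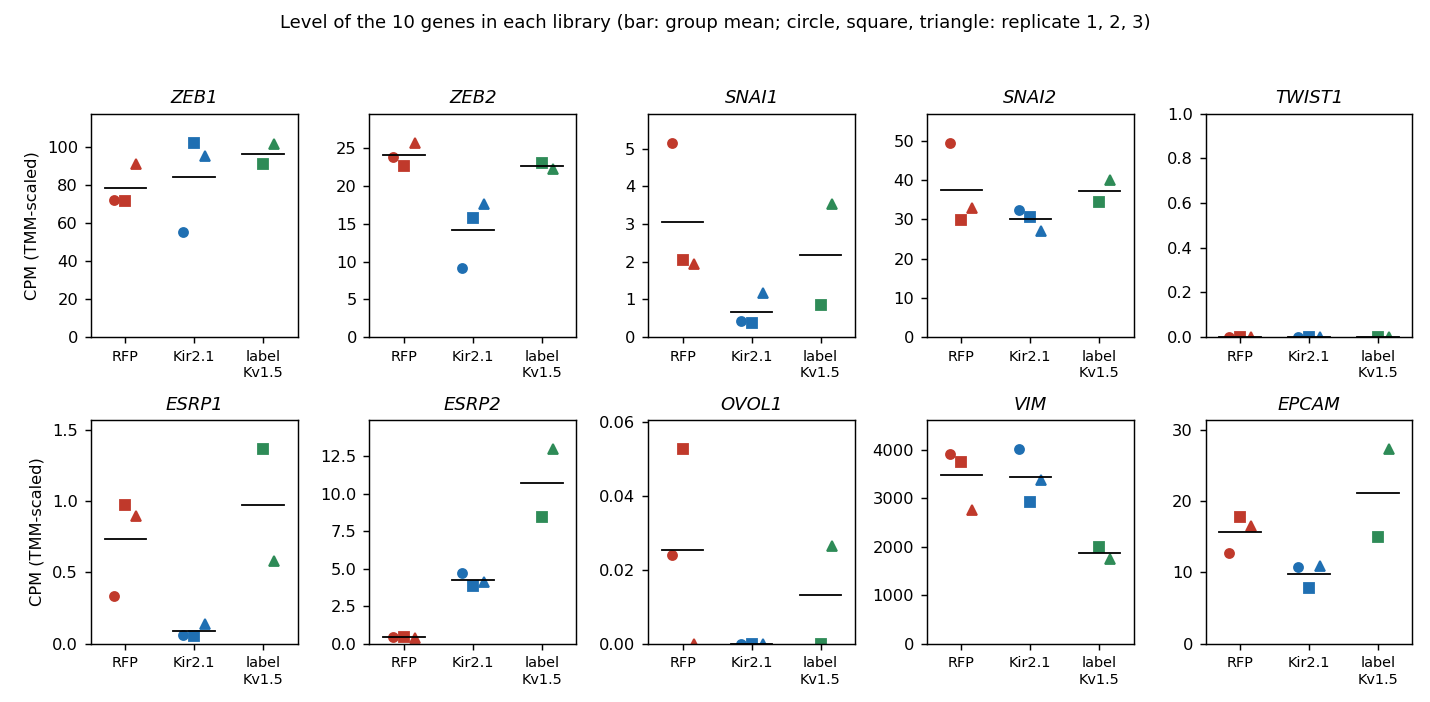
Level of each of the 10 genes in CPM (vertical axis, scaled by the trimmed mean of M values, each panel with its own range from 0) in the RFP, Kir2.1 and labelled Kv1.5 libraries; points are libraries and bars group means. ESRP2 separates all 3 groups, VIM is lowest, at 1992 and 1748 CPM, in the 2 Kv1.5-labelled libraries, and TWIST1 is at 0 throughout.

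Counting libraries rather than tests, the 2 groups did not overlap for 5 of the 8 genes between Kir2.1 and RFP, where 44.7% of all tested genes did not. The same held for 2 of 8 between the Kv1.5-labelled libraries and RFP (54.2% of all genes), and for 6 of 8 between the Kv1.5-labelled libraries and Kir2.1 (47.7%).

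ZEB1, on chromosome 10 (31318495-31529814, plus strand, GENCODE 29 on GRCh38), is a zinc-finger homeodomain repressor. It stood at 72.3, 71.4 and 91.1 CPM in RFP replicates 1 to 3, at 55.2, 102 and 95.3 CPM in Kir2.1, and at 90.9 and 102 CPM in the Kv1.5-labelled libraries. The groups overlapped, and Kir2.1 replicate 1 was the lowest of all. Its log2 fold change was 0.11 for Kir2.1 (SE 0.227, adjusted p = 0.776) and 0.30 for the Kv1.5-labelled libraries (SE 0.253, adjusted p = 0.391), neither past the threshold of edgeR's test. The sign for Kir2.1 rested on single libraries: it was -0.06 without Kir2.1 replicate 2 and 0.34 without Kir2.1 replicate 1. ZEB1 shares 366 exonic bases with the opposite-strand transcript ZEB1-AS1, and no source used here gives the strand setting of the count. ZEB1-AS1 was 1.49 higher on the log2 scale in the Kv1.5-labelled libraries than in RFP (edgeR, adjusted p = 0.00919), at 12.1 and 4.63 CPM against 2.39 to 3.54 CPM. Without Kv1.5 replicate 2 that difference was 0.64 (adjusted p = 0.164).

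ZEB2, the paralog of ZEB1, lies on chromosome 2 (144364364-144524583, minus strand). RFP libraries had 23.9, 22.6 and 25.8 CPM, Kir2.1 libraries 9.15, 15.8 and 17.6 CPM, and the Kv1.5-labelled libraries had 23.1 and 22.2 CPM. Every Kir2.1 library was below every other library. The decrease in Kir2.1 was 0.76 on the log2 scale, or 1.70-fold (edgeR, SE 0.239, adjusted p = 0.0403). In bulk RNA a smaller share of ZEB2-expressing cells and less ZEB2 RNA per cell cannot be told apart. Leaving out any single RFP library, or Kir2.1 replicate 1 or 2, ended the call (log2 fold change -0.85 to -0.53, adjusted p 0.0749 to 0.098). It was also lost in a test against a fold of 1.2 (edgeR's glmTreat, adjusted p = 0.0807). The libraries labelled Kv1.5 differed from RFP by -0.09 (adjusted p = 0.825), and were above Kir2.1 by 0.67, which missed the threshold (edgeR, adjusted p = 0.0993).

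As a share of ZEB1 plus ZEB2 per kilobase of exon, ZEB2 made up 8.89% to 10.3% in RFP, 5.06% to 6.00% in Kir2.1, and 8.06% and 7.01% in the Kv1.5-labelled libraries. Kir2.1 libraries thus lay lowest and the groups did not overlap. The absolute share depends on length: the exons of ZEB2 span 25.06 kb when all its transcripts are joined, while its longest transcript has 9.583 kb.

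SNAI1 encodes Snail, a short-lived zinc-finger repressor, on chromosome 20 (49982999-49988886, plus strand). It had 5.16, 2.05 and 1.93 CPM in RFP, 0.420, 0.378 and 1.17 CPM in Kir2.1, and 0.847 and 3.53 CPM in the Kv1.5-labelled libraries. All Kir2.1 libraries were below all RFP libraries, and RFP replicate 1 stood well above the other RFP libraries. Relative to RFP, SNAI1 fell by 2.20 on the log2 scale in Kir2.1, or 4.61-fold (edgeR, SE 0.621, adjusted p = 0.0268). Only 5.62% of all tested genes had a larger absolute log2 fold change in that comparison. The value was -1.59 without RFP replicate 1 (adjusted p = 0.0922), -1.97 without Kir2.1 replicate 1 (adjusted p = 0.115), -1.92 without Kir2.1 replicate 2 (adjusted p = 0.109) and -2.92 without Kir2.1 replicate 3, where the call was kept. One Kv1.5-labelled library lay within the Kir2.1 range and the other within the RFP range. Their log2 fold change was -0.48 against RFP (adjusted p = 0.602) and 1.72 against Kir2.1 (adjusted p = 0.0988). That last difference passed without Kv1.5 replicate 2 (2.41, adjusted p = 0.0228), without a filter on low counts and with DESeq2 (1.76, adjusted p = 0.0325).

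SNAI2, which encodes Slug, the close relative of Snail, lies on chromosome 8 (48917604-48921740, minus strand). Its levels were 49.6, 29.8 and 33.0 CPM in RFP, 32.5, 30.7 and 27.2 CPM in Kir2.1, and 34.6 and 40.2 CPM in the Kv1.5-labelled libraries. RFP replicate 1, the highest SNAI1 library, was also the highest for SNAI2, and RFP overlapped both other groups, which did not overlap each other. No comparison passed edgeR's test: -0.31 for Kir2.1 (adjusted p = 0.322), -0.00 for the Kv1.5-labelled libraries (adjusted p = 0.994) and 0.31 between them (adjusted p = 0.394). Per kilobase of exon, SNAI1 made up 10.5% to 17.3% of the SNAI1 plus SNAI2 level in RFP, 2.42% to 7.99% in Kir2.1, and 4.70% and 15.0% in the Kv1.5-labelled libraries.

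TWIST1, a basic helix-loop-helix factor on chromosome 7 (19020991-19117672, minus strand), had 0 counts in all 8 libraries. OVOL1, on chromosome 11 (65787022-65797219, plus strand), had 4 counts in all: 1 and 2 in RFP replicates 1 and 2, 1 in Kv1.5 replicate 3 and 0 elsewhere. Neither was tested, and no difference was detectable at this depth.

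The largest fold change of the 8 tested genes in each comparison was that of an ESRP gene. ESRP1, on chromosome 8 (94641074-94707466, plus strand), had 14, 37 and 31 counts in RFP, 2, 2 and 5 counts in Kir2.1, and 53 and 22 counts in the Kv1.5-labelled libraries. In CPM these were 0.334, 0.972 and 0.892, then 0.0647, 0.0540 and 0.140, then 1.36 and 0.579. Kir2.1 libraries were the lowest, with no overlap with either group, and RFP and the Kv1.5-labelled libraries overlapped. ESRP1 fell by 3.02 on the log2 scale in Kir2.1 against RFP (edgeR, SE 0.635, adjusted p = 0.00542), an 8.14-fold decrease. It passed the filter on low counts through the RFP and labelled Kv1.5 libraries, since no Kir2.1 library reached the minimum. The libraries labelled Kv1.5 exceeded Kir2.1 by 3.44 (edgeR, SE 0.662, adjusted p = 0.00536), and by 2.70 without Kv1.5 replicate 2. Against RFP they differed by 0.41 (adjusted p = 0.592). Both calls were kept under each alternative in which ESRP1 was tested, and a filter of 1 CPM in 2 libraries removed the gene.

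ESRP2 lies on chromosome 16 (68229111-68238102, minus strand). It had 0.454, 0.473 and 0.403 CPM in RFP, 4.72, 3.84 and 4.13 CPM in Kir2.1, and 8.47 and 13.0 CPM in the Kv1.5-labelled libraries. The 3 groups were apart from one another with no overlap, and replicates within RFP and within Kir2.1 lay close together. ESRP2 rose by 3.24 on the log2 scale in Kir2.1 (edgeR, SE 0.299, adjusted p = 1.64e-05), or 9.46-fold, and by 4.58 in the Kv1.5-labelled libraries (edgeR, SE 0.319, adjusted p = 1.58e-06), or 24.0-fold. Larger absolute changes were found in 3.08% and 2.26% of all tested genes. The libraries labelled Kv1.5 exceeded Kir2.1 by 1.34 (edgeR, SE 0.279, adjusted p = 0.00805). Without Kv1.5 replicate 3 this last difference was 1.00 and missed the threshold (adjusted p = 0.0609). In the authors' deposited table for Kir2.1 against RFP, which lists 1139 genes, ESRP2 has a log2 fold change of 3.24 and ESRP1 one of -3.03. The authors' deposited table for Kv1.5 against RFP, with 2178 genes, gives ESRP2 4.58.

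ESRP1 and ESRP2 together, in CPM per kilobase of exon, came to 0.150, 0.284 and 0.255 in RFP, 0.862, 0.701 and 0.771 in Kir2.1, and 1.80 and 2.45 in the Kv1.5-labelled libraries. The groups did not overlap, and the sum followed ESRP2. ESRP2 made up 54.3%, 29.9% and 28.4% of that sum in RFP, 98.5%, 98.4% and 96.3% in Kir2.1, and 84.5% and 95.2% in the Kv1.5-labelled libraries. RFP cells held both genes at low levels, with ESRP1 the larger part in replicates 2 and 3, and the other groups held mostly ESRP2.

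**Figure D2:**
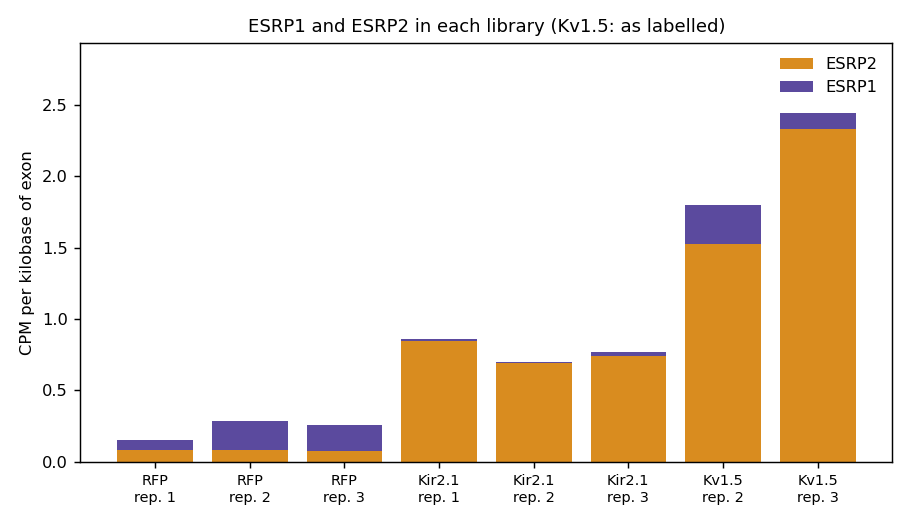
CPM per kilobase of exon of ESRP2 and ESRP1, stacked from 0, in each of the 8 libraries (Kv1.5 as labelled). The summed level is 0.150 to 0.284 in RFP, 0.701 to 0.862 in Kir2.1, and 1.80 and 2.45 in the Kv1.5-labelled libraries, and ESRP2 makes up most of it outside RFP.

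The ESRP2 exons overlap other genes only in part. They share 149 bases with NFATC3 on the opposite strand, which was not called in any comparison (log2 fold change -0.11, -0.40 and -0.29). On the same strand they share 35 bases with AC020978.5, which reached at most 3.29 CPM. It was 2.39 higher in Kir2.1 than in RFP (edgeR, adjusted p = 0.0153). In the Kv1.5-labelled libraries it was 4.34 higher (edgeR, adjusted p = 0.000253). RFP libraries had 0.0716 to 0.131 CPM of AC020978.5, under the minimum of the filter on low counts (0.271 CPM). It passed that filter only through the groups where it was high. Reads in the shared stretches cannot be assigned to 1 gene from these counts.

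Markers of another cell line were examined beside ESRP2, because the labels' protocol also mentions MDA-MB-468, a triple-negative line of epithelial character. The summed level of 12 markers of that line was 49.3 to 59.7 CPM in RFP, 92.0 to 108 CPM in Kir2.1, and 172 and 244 CPM in the Kv1.5-labelled libraries. Of the 5 that were tested, 2 rose and 1 fell in Kir2.1, and 3 rose in the Kv1.5-labelled libraries. LCN2, a secreted iron-siderophore carrier, rose by 3.92 and 5.92 on the log2 scale, and MAL2, an apical transport protein, by 3.03 and 5.90. CDH3, which encodes P-cadherin and was chosen after its values were seen, fell by 3.27 in Kir2.1 (edgeR, adjusted p = 0.00767; -2.37 without RFP replicate 3) and was at -0.89 in the Kv1.5-labelled libraries, and ELF3, an ETS factor, was at -0.48 and 0.01, none of these last 3 called. For CDH3 the Kir2.1 libraries had 4, 5 and 3 counts. None of them reached the minimum of the filter on low counts, which CDH3 passed only through libraries of the other groups. The 7 others, CDH1, GRHL2, RAB25, KRT5, KRT6B, KRT16 and PRSS8, were at or below 0.259 CPM in every library, and KRT6B had none. The call of LCN2 in Kir2.1 was lost without Kir2.1 replicate 2 (adjusted p = 0.0817). Without RFP replicate 3 the changes were larger, at 6.01 and 8.01 for LCN2 and 3.76 and 6.63 for MAL2. The part of such cells in the ESRP2 result was not tested. Fibroblast markers summed to 5.94 CPM or less over 8 genes in every library, and 5 of them were at or below 0.135 CPM throughout. Of the 3 that were tested, 2 rose in Kir2.1, and 1 rose and 1 fell in the Kv1.5-labelled libraries. Over all tested genes 20.5% and 33.7% were called in these comparisons with RFP. The 3 were at most 3.91 CPM in any library, and COL1A2, which rose in Kir2.1, reached the filter minimum in no RFP library.

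VIM, which encodes the intermediate filament vimentin, lies on chromosome 10 (17228259-17237593, plus strand). RFP libraries had 3917, 3751 and 2766 CPM, Kir2.1 libraries 4005, 2920 and 3369 CPM, and the Kv1.5-labelled libraries had 1992 and 1748 CPM. RFP and Kir2.1 overlapped over most of their range, and both Kv1.5-labelled libraries were below all others. VIM fell by 0.90 on the log2 scale in the Kv1.5-labelled libraries against RFP (edgeR, SE 0.239, adjusted p = 0.0129), or 1.86-fold. Against Kir2.1 it was 0.88 lower, a value of -0.88 (edgeR, SE 0.239, adjusted p = 0.0271), while Kir2.1 differed from RFP by -0.02 (adjusted p = 0.96). Without Kv1.5 replicate 3 the differences were -0.80 (adjusted p = 0.0668) and -0.79 (adjusted p = 0.13). The call against Kir2.1 was also lost without RFP replicate 2 (adjusted p = 0.0501), Kir2.1 replicate 1 (adjusted p = 0.0754) or Kir2.1 replicate 3 (adjusted p = 0.0681), and against a fold of 1.2 (glmTreat, adjusted p = 0.0526).

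VIM-AS1, transcribed from the opposite strand (chr10:17214239-17229985), covers the printed VIM window, though none of the window lies in its exons. It shares 641 exonic bases with VIM, 12.4% of the VIM exons. VIM-AS1 had 5.44, 6.07 and 4.14 CPM in RFP, 17.0, 13.8 and 17.1 CPM in Kir2.1, and 18.1 and 13.1 CPM in the Kv1.5-labelled libraries. RFP libraries were lowest, and the other groups overlapped each other. It rose by 1.61 in Kir2.1 (edgeR, SE 0.236, adjusted p = 0.000543) and by 1.58 in the Kv1.5-labelled libraries (edgeR, SE 0.254, adjusted p = 0.000666). Between these 2 groups VIM-AS1 differed by -0.04 (adjusted p = 0.944), where VIM differed by -0.88. Reads from the shared bases cannot be told apart by gene if strand was not used.

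**Figure D3:**
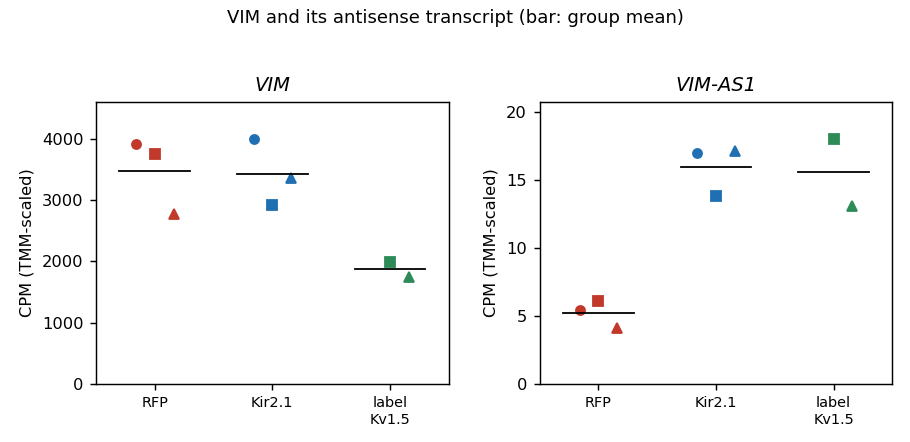
VIM (left) and VIM-AS1 (right) in CPM per library (circle, square and triangle for replicates 1, 2 and 3, bar for the group mean, vertical axes from 0). VIM is lowest in the 2 Kv1.5-labelled libraries, at 1992 and 1748 CPM, and VIM-AS1 is lowest in RFP, at 4.14 to 6.07 CPM.

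EPCAM lies on chromosome 2 (47345158-47387601, plus strand). Its levels were 12.7, 17.8 and 16.5 CPM in RFP, 10.7, 7.78 and 10.9 CPM in Kir2.1, and 15.0 and 27.2 CPM in the Kv1.5-labelled libraries. Kir2.1 libraries were below all others, and Kv1.5 replicate 3 was the highest. The libraries labelled Kv1.5 exceeded Kir2.1 by 1.11 on the log2 scale (edgeR, SE 0.286, adjusted p = 0.0215), or 2.16-fold. That call was lost without Kir2.1 replicate 1 (1.18, adjusted p = 0.0522), Kir2.1 replicate 2 (0.97, adjusted p = 0.0901) or Kv1.5 replicate 3 (0.61, adjusted p = 0.213). Kir2.1 differed from RFP by -0.68, which missed the threshold (edgeR, adjusted p = 0.0865) and passed it with DESeq2 (-0.71, adjusted p = 0.0488), in a fit of those 2 groups alone (adjusted p = 0.0362), and without either Kv1.5-labelled library (adjusted p 0.0345 and 0.0362). The libraries labelled Kv1.5 differed from RFP by 0.43 (adjusted p = 0.27), and by 0.81 without Kv1.5 replicate 2, which passed (adjusted p = 0.0468).

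**Figure D4:**
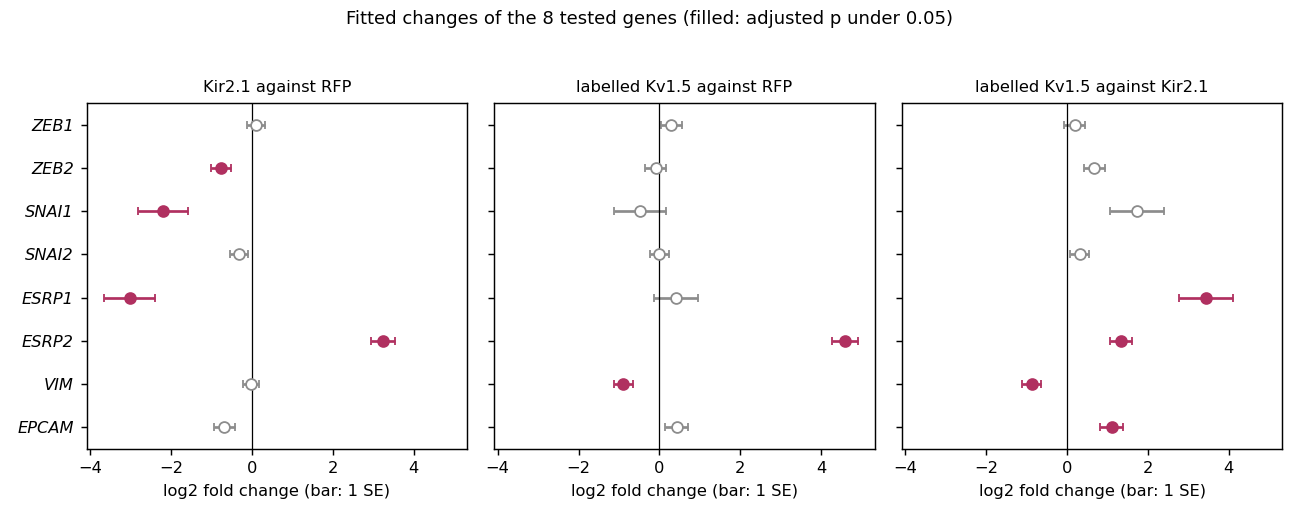
Fitted log2 fold change (horizontal axis, bar 1 SE) of the 8 tested genes in the 3 comparisons, filled where the Benjamini-Hochberg adjusted p of edgeR's test is under 0.05. ESRP2 is higher in all 3, ESRP1 is lower in Kir2.1 than in either other group, and VIM is lower in the Kv1.5-labelled libraries.

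Levels of different genes can be set side by side only per kilobase of exon. In RFP cells the mean order was VIM (674 CPM per kb), SNAI2 (11.1), ZEB1 (9.05), EPCAM (6.21), SNAI1 (1.81), ZEB2 (0.962), ESRP1 (0.150) and ESRP2 (0.0796), followed by OVOL1 and TWIST1 at the floor. SNAI2 and ZEB1 overlapped, as did ESRP1 and ESRP2, and the other neighbours among the first 8 did not. In Kir2.1 cells the order began with VIM (665), ZEB1 (9.74), SNAI2 (8.88) and EPCAM (3.89), and the ranges of ZEB1 and SNAI2 overlapped. ESRP2 stood at 0.760 CPM per kb, beside ZEB2 (0.566) and SNAI1 (0.390), with overlapping ranges for all 3, and ESRP1 was last of the 8 (0.0177). In the Kv1.5-labelled libraries VIM (362.5) was followed by ZEB1 (11.1), SNAI2 (11.02) and EPCAM (8.38), whose ranges all overlapped. ESRP2 reached 1.93 CPM per kb there, ahead of SNAI1 (1.30), ZEB2 (0.904) and ESRP1 (0.199), and SNAI1 overlapped both ESRP2 and ZEB2. With the longest transcript as the length, ZEB2 stood at 2.51 CPM per kb in RFP, above SNAI1, and in Kir2.1 at 1.48 CPM per kb, above ESRP2 at 1.12. The place of ZEB2 in the order therefore depends on the gene model.

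Other genes of the transition are given by list. Of 11 tested mesenchymal transcription factors, 3 rose and 2 fell in Kir2.1, 4 rose and 2 fell in the Kv1.5-labelled libraries against RFP, and 2 were higher in the Kv1.5-labelled libraries than in Kir2.1. Over all tested genes 20.5%, 33.7% and 16.8% were called in the 3 comparisons, and the list medians were 0.42, 0.22 and 0.34. FOXQ1, a forkhead factor, rose by 2.28 and 2.64 on the log2 scale in the 2 groups, from 5.80 to 9.96 CPM in RFP to between 33.6 and 50.1 CPM. FOXC1, another forkhead factor, rose by 0.69 and 2.06, and by 1.37 between the groups, with 10.9 to 13.2 CPM in RFP and 39.9 and 60.0 CPM in the Kv1.5-labelled libraries. PRRX1, a homeobox factor of mesenchyme and chosen after its values were seen, fell by 2.52 in Kir2.1 and fell by 2.18 in the Kv1.5-labelled libraries, from 4.31 to 5.58 CPM to between 0.486 and 1.17 CPM. HMGA2, a chromatin factor that induces SNAI1, was 0.62 lower in Kir2.1 (value -0.62), and TCF3, which encodes E-box-binding E proteins, was lower in the Kv1.5-labelled libraries (value -0.85). The calls of FOXC1 and HMGA2 in Kir2.1 were lost without 5 and 6 of the 8 libraries left out in turn (adjusted p 0.0508 to 0.106 and 0.0506 to 0.0829), and that of TCF3 without 3 (adjusted p 0.0574 to 0.165).

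Among 10 tested epithelial transcription factors, 3 rose and 1 fell in Kir2.1, 4 rose and 2 fell in the Kv1.5-labelled libraries, and 1 was higher and 1 lower there than in Kir2.1, against 20.5%, 33.7% and 16.8% of all tested genes. The list medians were -0.18, 0.28 and 0.50. EHF, an ETS factor of epithelia, had 0.430 to 3.48 CPM in RFP, 152 to 256 CPM in Kir2.1, and 379 and 219 CPM in the Kv1.5-labelled libraries, increases of 7.02 and 7.57 on the log2 scale (edgeR, adjusted p = 0.000204 and 0.000118). SPDEF, another epithelial ETS factor, rose by 3.87 and 3.80. It had 1.05 to 6.96 CPM in RFP, 45.7 to 61.9 CPM in Kir2.1, and 67.1 and 39.9 CPM in the Kv1.5-labelled libraries. Without RFP replicate 3, the highest control for both, EHF rose by 8.29 and 8.85 and SPDEF by 4.61 and 4.54. KLF4 rose by 1.51 in the Kv1.5-labelled libraries against RFP and by 1.71 against Kir2.1. GATA3, a luminal factor, was at -1.14 in the Kv1.5-labelled libraries against RFP (edgeR, adjusted p = 0.0108). Against Kir2.1 GATA3 was at -0.98 there. That call was lost without RFP replicate 2 or any single Kir2.1 library (edgeR, adjusted p 0.0656 to 0.104). Without Kv1.5 replicate 3 the call was lost as well, at a value of -0.63. FOXA1, a luminal factor chosen after its values were seen, fell by 2.56 in Kir2.1 and fell by 2.04 in the Kv1.5-labelled libraries, from 0.683 to 0.955 CPM in RFP to at most 0.263 CPM. Without Kv1.5 replicate 3 the second value was -2.64. FOXA1 passed the filter on low counts through the RFP libraries alone, since no Kir2.1 or Kv1.5-labelled library reached the minimum. GRHL2, a grainyhead factor that opposes ZEB1, had at most 0.0279 CPM.

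Epithelial junction and surface genes, 27 of them tested, gave these calls: 3 rose and 6 fell in Kir2.1, 4 rose and 4 fell in the Kv1.5-labelled libraries, and 5 were higher and 1 lower there than in Kir2.1, against the same 20.5%, 33.7% and 16.8% of all tested genes. Their medians were -0.45, -0.14 and 0.19. JUP, the junction protein plakoglobin, rose by 1.93 and 1.19. Its call in the Kv1.5-labelled libraries was lost without Kv1.5 replicate 2 (0.59, adjusted p = 0.216) or RFP replicate 2 (1.18, adjusted p = 0.0518). DSC2, a desmosomal cadherin, fell by 1.85 in Kir2.1 and was 1.47 higher in the Kv1.5-labelled libraries than in Kir2.1. That difference was lost without Kir2.1 replicate 1 or 3 or Kv1.5 replicate 3 (0.83, adjusted p = 0.245, without the last). LSR, a tricellular junction receptor, was at -1.45 in Kir2.1 against RFP (edgeR, adjusted p = 0.000465). In the Kv1.5-labelled libraries LSR was at -0.28 against RFP (edgeR, adjusted p = 0.373), and it was 1.17 higher there than in Kir2.1. AP1M2, an epithelial sorting adaptor, fell by 1.99 in the Kv1.5-labelled libraries against RFP, with -3.11 and -1.37 when either Kv1.5-labelled library was left out. MAL2 was 2.87 higher in the Kv1.5-labelled libraries than in Kir2.1.

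Of 20 tested mesenchymal marker genes other than VIM, 5 rose and 3 fell in Kir2.1, 5 rose and 6 fell in the Kv1.5-labelled libraries, and 1 was higher and 4 lower there than in Kir2.1, where 20.5%, 33.7% and 16.8% of all tested genes were called. The medians were 0.25, 0.20 and -0.36. TGFBI, a matrix protein induced by TGF-beta, had 167 to 293 CPM in RFP, 90.7 to 129 CPM in Kir2.1, and 35.2 and 16.9 CPM in the Kv1.5-labelled libraries. The 3 groups did not overlap. In the Kv1.5-labelled libraries TGFBI fell by 3.21 against RFP (edgeR, SE 0.363, adjusted p = 6.18e-05) and was at -2.15 against Kir2.1. Without Kv1.5 replicate 2 these values were -3.83 and -2.78. FBN1, fibrillin, fell by 1.77 in the Kv1.5-labelled libraries, to 26.9 and 16.2 CPM from 72.4 to 74.8 CPM in RFP. The Kir2.1 libraries were also all below RFP for FBN1, at 25.9 to 41.4 CPM. TAGLN, an actin-binding protein of smooth muscle, fell by 1.94 in Kir2.1 and fell by 2.68 in the Kv1.5-labelled libraries, from a wide RFP range of 5.64 to 25.3 CPM. Without RFP replicate 1, the highest, these were -1.05 (adjusted p = 0.0618) and -1.80; the first call was also lost without Kir2.1 replicate 2 or 3 and the second without either Kv1.5-labelled library. S100A4, a calcium-binding protein of motile cells, rose by 2.90 in Kir2.1 (edgeR, adjusted p = 0.00602, and 0.069 without a filter on low counts). In the Kv1.5-labelled libraries S100A4 was at 1.63, which missed the threshold (edgeR, adjusted p = 0.0536). TNC, tenascin, rose by 1.33 in Kir2.1 and by 0.91 in the Kv1.5-labelled libraries (edgeR, adjusted p = 0.00147 and 0.0136). FN1, fibronectin, was at -1.24 in the Kv1.5-labelled libraries against RFP (edgeR, adjusted p = 0.0205). LOX, a collagen cross-linking enzyme, was at 0.93 in the same comparison (edgeR, adjusted p = 0.00435). Between the Kv1.5-labelled libraries and Kir2.1, FN1 was lower (value -1.45) and LOX was 0.88 higher. FN1 was no longer called without Kir2.1 replicate 2 or 3 or Kv1.5 replicate 3 (adjusted p 0.065 to 0.145), nor LOX without Kv1.5 replicate 3 (adjusted p = 0.0724).

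Of 23 tested partners and regulators of the SNAIL and ZEB repressors, 2 rose and 2 fell in Kir2.1, 3 rose and 4 fell in the Kv1.5-labelled libraries, and 1 was higher and 2 lower there than in Kir2.1. These shares are near the 20.5%, 33.7% and 16.8% of all tested genes, and the list medians were -0.08, 0.02 and 0.07. USP27X, a deubiquitinase that stabilises Snail, rose by 2.47 and 3.06, from 1.05 to 1.70 CPM in RFP to 6.45 to 7.43 CPM in Kir2.1 and 9.88 and 11.5 CPM in the Kv1.5-labelled libraries. In Kir2.1 the SNAI1 transcript itself was lower. WTIP, an AJUBA-family LIM protein that binds Snail, rose by 1.14 and 2.23. EED, a Polycomb subunit, fell by 0.89 in the Kv1.5-labelled libraries. Smaller differences were lost without 5 or 6 of the 8 libraries left out in turn: WTIP in Kir2.1 (adjusted p 0.0818 to 0.152), the corepressor SIN3A in Kir2.1 (-0.58, adjusted p 0.0763 to 0.108), and, between the Kv1.5-labelled libraries and Kir2.1, EED (-0.62) and FBXO11 (0.71), a ubiquitin ligase subunit for Snail. PAK1, a kinase that phosphorylates Snail, was 0.80 lower in that comparison (value -0.80), a call lost without Kv1.5 replicate 3 (adjusted p = 0.0608).

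Of 16 other tested splicing factors of the transition, 1 rose and 2 fell in Kir2.1, 2 rose and 4 fell in the Kv1.5-labelled libraries, and 2 were higher there than in Kir2.1. These shares, too, are near the 20.5%, 33.7% and 16.8% of all tested genes, with medians of -0.12, -0.11 and -0.09. RBM47, an epithelial RNA-binding protein, had 3.34 to 7.17 CPM in RFP and 16.5 to 34.1 CPM in Kir2.1, an increase of 2.52 (edgeR, SE 0.353, adjusted p = 0.000397). It rose by 1.32 in the Kv1.5-labelled libraries, and leaving out RFP replicate 2 or Kv1.5 replicate 2 ended that call (adjusted p 0.0704 and 0.0959). RBM24, best known from muscle splicing, fell by 2.17 in Kir2.1 and fell by 2.44 in the Kv1.5-labelled libraries, from 32.3 to 35.9 CPM in RFP to between 5.88 and 9.85 CPM. QKI, a regulator of mesenchymal splicing, was 1.10 higher in the Kv1.5-labelled libraries than in Kir2.1, except without Kv1.5 replicate 2 (0.79, adjusted p = 0.0859). RBM38, an RNA-binding target of p53, rose by 1.05 against RFP and 0.93 against Kir2.1, at 0.52 and 0.39 without Kv1.5 replicate 3 (adjusted p = 0.187 and 0.423). The first call was also lost without RFP replicate 2 (adjusted p = 0.0507), and the second without RFP replicate 2 or Kir2.1 replicate 2 or 3. MBNL1, a muscleblind splicing factor, was lower in Kir2.1 (-0.70), a call lost without each of the 6 RFP and Kir2.1 libraries in turn (adjusted p 0.0613 to 0.115). RBFOX2, a splicing factor of mesenchymal cells chosen after its values were seen, stood at 154 to 203 CPM and was not called in any comparison.

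**Figure D5:**
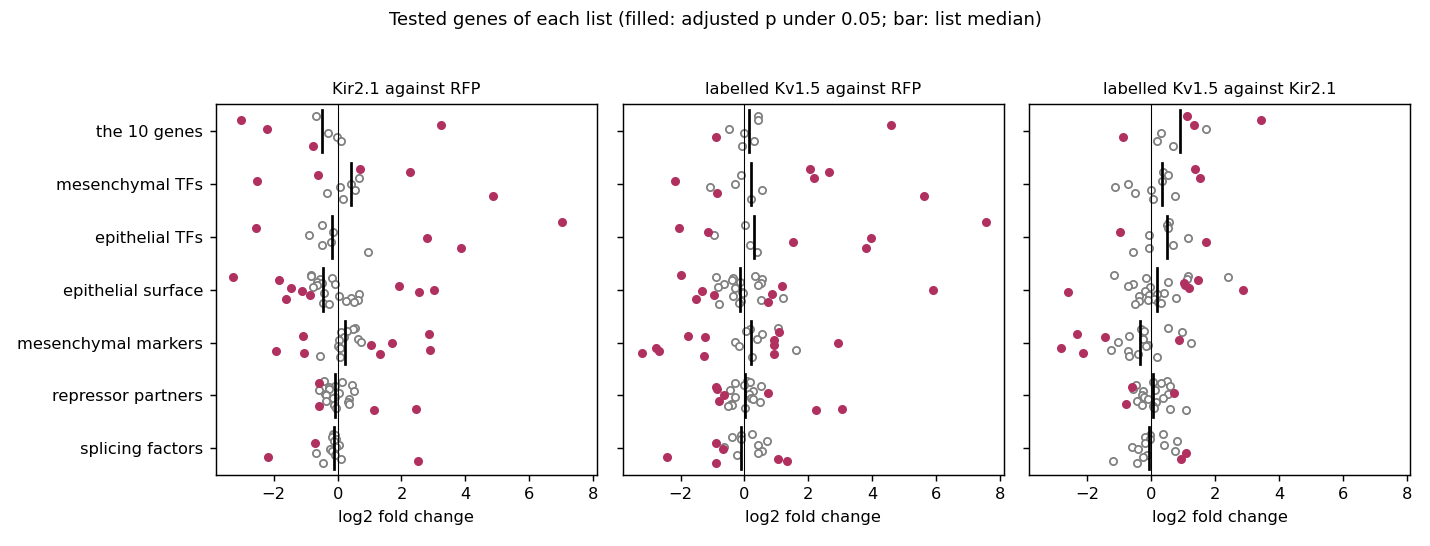
Log2 fold changes (horizontal axis) of the tested genes among the 10 and in 6 other lists (mesenchymal and epithelial transcription factors, epithelial surface genes, mesenchymal markers, repressor partners, splicing factors) in the 3 comparisons, 1 point per gene, filled where the adjusted p of edgeR's test is under 0.05, with a bar at the list median. Each of the 7 rows holds points on both sides of 0, and EHF, at 7.02 and 7.57 against RFP, lies farthest to the right of the genes shown.

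The genes whose log2 CPM ran closest to each member over the 8 libraries, by the root mean square difference after centring, were sought among the 10695 genes averaging 5 CPM or more. For ZEB1 these were JAK2, TRAPPC8 and PIK3CA (0.0855 to 0.0926, where ZEB1 itself varied with an SD of 0.291). For ZEB2 they included ASCC3 and STK4 (0.122 and 0.129), and for SNAI2 they were ZNF35, YTHDF1 and MPHOSPH6 (0.0838 to 0.115). VIM lay nearest to NCAPH2, PSMD3 and BTBD6 (0.0993 to 0.101), and EPCAM to SNHG29, PHF5A and NIFK (0.133 to 0.153). The other 5 members averaged under 5 CPM and were not examined in this way.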

How the data were processed

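RNA of MDA-MB-231 cells was prepared with a stranded polyadenylated-RNA kit and sequenced as single-end 50-base reads, per the labels' protocols. The authors deposited a table of raw gene counts with 8 libraries. Per the submitters' processing notes, FastQC, Trimmomatic, STAR and edgeR were used with GRCh38. No source used here gives the counter, its strand setting or the annotation. The authors' deposited comparison tables give log2 fold changes, unshrunk log2 fold changes, log2 CPM, p-values, false discovery rates and a score. The score values, labelled ranking value, were calculated by the authors, as deposited, beside their edgeR results, and no source used here gives the formula. Only the log2 fold changes are quoted.

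Genes were filtered with filterByExpr (minimum count 10), leaving 16687. One edgeR 4.0.16 quasi-likelihood fit (R 4.3.3, robust, trimmed mean of M values scaling, 5 residual degrees of freedom) covered all 3 groups, with Benjamini-Hochberg adjustment over all genes and calls under 0.05. SEs were derived from the F statistics. CPM per kilobase used joined exons of GENCODE 29. The code was tested on simulated data. Alternatives used DESeq2 1.42.0, limma 3.58.1 (voom), other scalings and filters, and each library left out in turn. Floors cover counting error only.

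The members and lists were chosen with earlier results of these data known. Besides the 10 members, the text names KCNJ2, KCNA5, up to 3 called genes per list and comparison by the size of the change with a mean of at least 5 CPM, the nearest genes by pattern, overlapping genes, and genes stated as chosen after their values were seen. A few genes that this rule names are not reported here.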

Additional observations from a re-analysis of the deposited data

How the results depend on the processing

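Under other scalings, filters, tools and fits, 3 to 5 of the 8 genes were called between Kir2.1 and RFP, 2 between the Kv1.5-labelled libraries and RFP, and 3 to 5 between the Kv1.5-labelled libraries and Kir2.1. With each library left out in turn, these counts ran from 2 to 5, 1 to 3 and 1 to 5. Calls over all genes ran from 1975 (without Kir2.1 replicate 2) to 4519, from 3912 to 5536, and from 1384 (without Kir2.1 replicate 2) to 3861, and the cause was not tested. ESRP2 against RFP kept its calls. So did ESRP1 against Kir2.1 in each setting that tested it, but it passed the filter only through the groups where it was high, and a filter of 1 CPM in 2 libraries removed it. Apart from left-out libraries, at least 1 other setting ended the call of FOXC1, HMGA2, MBNL1, SIN3A, WTIP, LCN2 and S100A4 in Kir2.1, of TCF3 in the Kv1.5-labelled libraries, and of EED, FBXO11, RBM38 and GATA3 between these groups (adjusted p 0.0506 to 0.107). Whether the numbers of the replicates pair the libraries was not settled, and the main fit did not pair them. Deviations of same-numbered libraries from their group means correlated with r of -0.138 to 0.242 over 7 pairs, and 3 of these were over 0.1. Between RFP and Kir2.1, r was 0.237 for replicates 1, -0.138 for replicates 2 and 0.242 for replicates 3. It was -0.301 and -0.24 where replicates 1 and 3 of these groups were crossed. The 2 Kv1.5-labelled libraries deviate by equal and opposite amounts, so their pairs say little. With the replicate number as a block, 4, 2 and 4 of the genes and 3707, 5565 and 2729 genes in all were called. The block moved TAGLN in the Kv1.5-labelled libraries against RFP from -2.68 to -1.94. Where 1 Kv1.5-labelled library was left out, the other was taken to vary like the other groups. Depth limits ESRP1, OVOL1 and TWIST1 most.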
